A study of Mus musculus with 3 samples.

Results

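Axon guidance genes encode the signals and receptors that steer growing nerve fibres, and 48 of them were examined for binding of Tbx4 and Hoxc10, both transcription factors, in the mouse hindlimb bud. The genes were taken by name: 14 Eph receptors, 7 ephrins, 7 class 3 semaphorins, 5 plexins, 2 neuropilins, 3 Slits, 3 Robos, 2 netrins and 5 netrin receptors, out of 21887 protein-coding genes in all. The rule used no measured value, though it was written with earlier results of these data known. Ephrins, semaphorins, Slits and netrins were grouped as 19 ligands, and the other subfamilies as 29 receptors. Binding was mapped by chromatin immunoprecipitation with sequencing (ChIP-seq), in which formaldehyde-fixed chromatin is sheared and the fragments held by an antibody are sequenced. The tissue came from untreated wild-type embryos of the CD1 strain at stage e11.5, and both factors were mapped in it. A homemade antibody was used for Tbx4, a T-box factor of the hindlimb, and an Abcam antibody for Hoxc10, a homeodomain factor of the Hoxc cluster. Each factor is represented by 1 deposited list of peak summits, so there are no replicates and nothing below was tested between samples. A further Hoxc10 sample, made with a Santa Cruz antibody, was not analysed here.

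The deposited Tbx4 list held 4780 summits and the Hoxc10 list 1614. The score beside each summit is a MACS2 value on a −log10 scale, and it was compared only within its own list. A summit was assigned to a gene when it lay inside the gene or between it and the next protein-coding gene, at most 1 Mb away; this stretch is called the gene's domain. A summit between 2 genes therefore counted for both. Summits of both factors within 200 bp of each other were called co-bound. Read depth is unknown, since the lists hold no read counts, and hindlimb buds hold several cell types that these data do not separate. Neither list measures expression.

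Eph receptors are tyrosine kinases that bind ephrins on the surface of neighbouring cells, and both sides can signal. Class 3 semaphorins are secreted and mostly repel axons; they bind neuropilins, while plexins carry the signal into the cell. Slits act through Robo receptors, and netrins attract or repel through Dcc and the Unc5 receptors. In the limb bud, ephrins and semaphorins made by the mesenchyme set the path and timing of motor and sensory axons, and several of the same proteins also act in blood vessels.

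Most of the guidance genes had binding of Tbx4, and a smaller part had binding of Hoxc10. Of the 48 genes 32 had at least 1 Tbx4 summit, or 66.7%, while 17.2% of all protein-coding genes had one. At least 1 Hoxc10 summit was found at 21 guidance genes, or 43.8%, compared with 6.83% of all genes. The Tbx4 list was the longer one, with 4780 summits against 1614. With only its 1614 highest summits, 22 guidance genes had Tbx4 (45.8%, against 7.39% of all genes). Both factors were found at 19 guidance genes (39.6%, against 5% of all genes) and Tbx4 without Hoxc10 at 13 (27.1%, against 12.2%). Hoxc10 without Tbx4 was found at 2, Epha5 and Sema3c (4.17%, against 1.83%). The other 14 had neither, or 29.2%, where 81% of all genes had neither. At least 5 Tbx4 summits were found at 8 genes (1.16% of all genes had as many), which were Epha3, Epha4, Efna5, Sema3a, Nrp1, Robo1, Robo2 and Unc5c. At least 4 Hoxc10 summits were found at 4 genes (0.503% of all genes), which were Efna5, Sema3a, Nrp2 and Robo2. Domains of guidance genes were long, with a median of 360 kb against 67.3 kb for all protein-coding genes, and a longer domain has more room for a summit.

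Set beside genes of the same broad class of domain length, the guidance genes still had the larger share with a summit, except for Hoxc10 in short domains. Of 17 guidance genes with domains over 1 Mb 16 had a Tbx4 summit (94.1%), against 56.2% of all genes of this length. Of 16 with domains of 100 kb to 1 Mb 12 had one (75%), against 29%, and of 15 with shorter domains 4 had one (26.7%), against 8.18%. For Hoxc10 the shares in the same order were 82.4% (14 genes) against 38.2%, 43.8% (7 genes) against 13.3%, and 0 of 15 genes against 1.21%. Of the 8 genes with at least 5 Tbx4 summits 7 had domains over 1 Mb, where 13.5% of all genes had as many, and the other, Unc5c, had a domain of 100 kb to 1 Mb, where 1.77% had as many. Among genes with at least 4 Hoxc10 summits, Efna5, Sema3a and Robo2 had domains over 1 Mb, where 5.74% of all genes had as many. Nrp2 was the one with a domain of 100 kb to 1 Mb, where 0.759% of all genes had as many, and no guidance gene with a shorter domain had 4, against 0.0147% of all such genes. Within each class the guidance domains were also the longer ones, so lengths were not fully matched. From the longest class down, their medians were 1443, 319 and 41.8 kb, against 1232, 206 and 37.1 kb. Per Mb of domain in the longest class there were 1.84 Tbx4 and 1.01 Hoxc10 summits for guidance genes, against 1.38 and 0.587 for all genes. In domains of 100 kb to 1 Mb there were 4.41 and 1.89 per Mb, against 1.95 and 0.714.

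**Figure D1:**
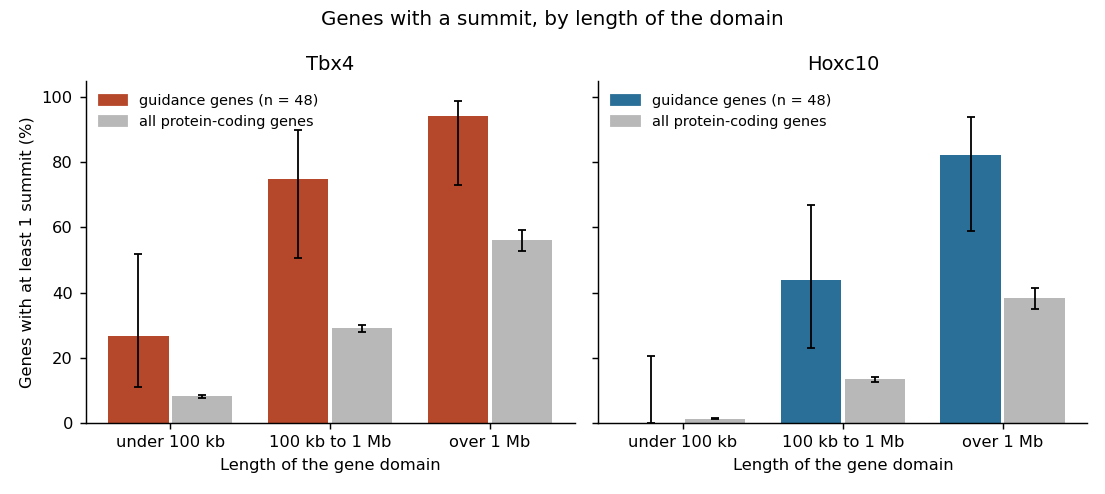
Percent of genes with at least 1 summit in the domain (y axis) in 3 classes of domain length (x axis), for Tbx4 and Hoxc10, with the 48 guidance genes coloured and all protein-coding genes in grey; error bars are 95% Wilson intervals and cover counting error only. In domains over 1 Mb, 94.1% of guidance genes had a Tbx4 summit and 82.4% a Hoxc10 summit, against 56.2% and 38.2% of all genes.

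The guidance domains together covered 34.6 Mb and held 87 different Tbx4 summits and 40 different Hoxc10 summits. These were 1.82% of the Tbx4 list (95% Wilson interval 1.48 to 2.24%) and 2.48% of the Hoxc10 list (1.83 to 3.36%). The intervals cover counting error only. There were thus 2.18 Tbx4 summits for each Hoxc10 summit, against 2.98 in the parts of the lists outside guidance domains. The median Tbx4 score was 4.46 in guidance domains and 3.67 outside them, and 30 of the 87 summits (34.5%) reached the upper quartile of the list, 7.14, against 25.7% outside. The median Hoxc10 score was 7.72 both in guidance domains and outside. The highest Tbx4 summit in these domains scored 34.51 and the highest Hoxc10 summit 35.74, while the lists reach 317.1 and 237.9, so the strongest sites of either list were not at guidance genes.

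Binding was mostly far from the gene starts. Inside the guidance genes lay 45 Tbx4 summits (51.7%) and 13 Hoxc10 summits (32.5%). The remaining 42 Tbx4 and 27 Hoxc10 summits lay between genes, where the guidance gene had the nearest gene end for 31 and 19 of them, and a neighbour for 11 and 8. Within 1 kb of any gene end were 5 Tbx4 summits (5.75%, interval 2.48 to 12.8%), against 13% of the Tbx4 summits outside guidance domains. None of the 40 Hoxc10 summits lay there (interval 0 to 8.76%), against 5.15% outside. Annotated transcription starts were at hand for 39 of the 48 genes. At these genes the median distance to the nearest start was 194 kb for 74 Tbx4 summits and 217 kb for 37 Hoxc10 summits, and 46 and 27 of them were over 100 kb away.

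**Figure D2:**
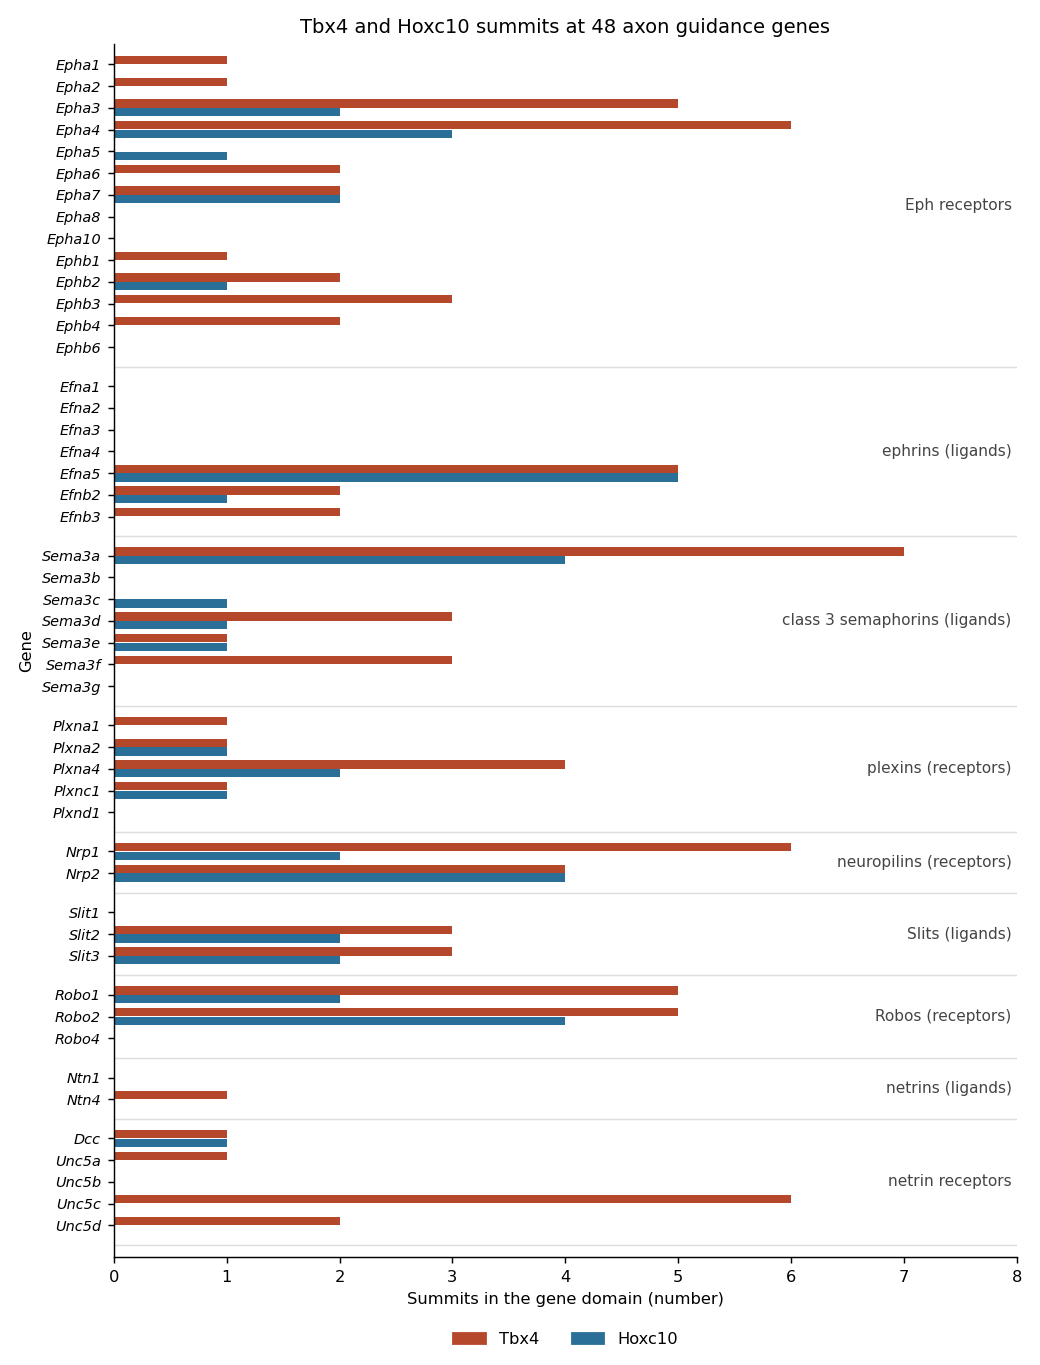
Number of Tbx4 and Hoxc10 summits (x axis) in the domain of each of the 48 guidance genes (y axis), grouped by subfamily; a summit between 2 genes counts for both. Sema3a had the most Tbx4 summits, 7, and Efna5 the most Hoxc10 summits, 5, and 14 genes had neither.

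Among the ligands, the ephrins divided by gene. Efna5, a membrane-anchored ephrin that repels motor axons in the ventral limb, had 5 Tbx4 and 5 Hoxc10 summits. The Tbx4 summits scored 4.46, 19.64, 14.74, 2.26 and 9.15 in order along chromosome 17, and 4 of them lay inside the gene. The Hoxc10 summits scored 3.83, 9.91, 12.24, 21.79 and 13.04, with 2 inside the gene. Inside Efna5 were 2 co-bound sites, where Tbx4 and Hoxc10 summits stood at 62836855 and 62836863, 8 bp apart, and at 62736161 and 62736179, 18 bp apart. A Hoxc10 summit at 62882787, 1470 bp from the start of the gene, was the nearest Hoxc10 summit to any of the annotated starts.

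Efnb2, a transmembrane ephrin of dorsal limb mesenchyme and arteries, had 2 Tbx4 summits, both scoring 8.12, and 1 Hoxc10 summit of 9.16. One Tbx4 summit lay inside the gene and the other 873 kb outside it on chromosome 8, at 7744459, where the Hoxc10 summit was 43 bp away. Efnb3 had 2 Tbx4 summits, 10.21 inside the gene and 5.3 at 364 bp outside it, and no Hoxc10 summit. The domain of Efnb3 is only 12.6 kb long, and the second of these summits was 240 bp from the end of its neighbour Wrap53. Efna1, Efna2, Efna3 and Efna4 had no summit of either factor, in domains of 16.7 to 52.4 kb. Efna5 has a domain of 1443 kb.

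The class 3 semaphorins ranged from 0 to 7 Tbx4 summits a gene, the widest range of a subfamily for Tbx4, and from 0 to 4 Hoxc10 summits. Sema3a, a secreted repellent that holds axons back at the base of the limb, had 7 Tbx4 and 4 Hoxc10 summits, the most Tbx4 summits of the 48 genes. Its Tbx4 scores were low to moderate, 2.26, 3.67, 11.3, 5.3, 2.26, 2.94 and 3.67 along chromosome 5, and its Hoxc10 scores were 3.26, 3.83, 7.02 and 7.02. Inside the gene 2 sites were co-bound, at 13399171 and 13399246 (75 bp apart) and at 13439709 and 13439589 (120 bp apart). The RefSeq start used for Sema3a lies well inside the gene span. The first of these sites was 2387 bp from it for Tbx4 and 2462 bp for Hoxc10, closer than any other co-bound site of the guidance genes with an annotated start.

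Sema3d is the neighbour of Sema3a, and its 3 Tbx4 summits (2.26, 3.67 and 11.3) and 1 Hoxc10 summit (3.26) all lay between these 2 genes. Each of them was nearer to Sema3a, so that Sema3d had no summit inside the gene or on its other side. Sema3e, the ligand of Plxnd1, had a Tbx4 summit of 10.21 inside the gene. Its Hoxc10 summit of 3.83 was 117 kb away and nearer to the neighbour Gm6650. Sema3f, a ligand of Nrp2 that guides motor axons, had 3 weak Tbx4 summits (2.26, 2.26 and 2.94) in a domain of 60.9 kb and no Hoxc10 summit. Sema3c had 1 Hoxc10 summit of 6.34, 8741 bp from its neighbour Cd36 and 42.7 kb from Sema3c itself. Sema3b and Sema3g, with domains of 16.5 and 26 kb, had none.

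Of the remaining ligands, Slit2 and Slit3 were bound by both factors and Slit1 by neither. Slit2 had Tbx4 summits of 14.74, 4.46 and 28.89 and Hoxc10 summits of 16.39 and 15.53. The Tbx4 summit of 28.89, at 48004027 of chromosome 5, lay inside Slit2, 20.9 kb from its start, and ranked in the highest 2.59% of the Tbx4 list with no Hoxc10 partner. The co-bound site was 658 kb outside the gene, with summits at 47322967 for Tbx4 (14.74) and at 47322833 for Hoxc10 (16.39). Slit3 had Tbx4 summits of 5.3, 1.63 and 5.3 inside the gene and a Hoxc10 summit of 32.61, also inside it, at 35448367 of chromosome 11. That Hoxc10 summit ranked in the highest 3.66% of its list, and the nearest Tbx4 summit, at 35435290, was not within 200 bp. A weaker Hoxc10 summit of 4.43 lay 217 kb outside Slit3 and was nearer to the neighbour Spdl1. Among the netrins, Ntn4 had 1 Tbx4 summit of 8.12 inside the gene and Ntn1 had none of either factor.

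Among the receptors, the A-class Eph genes held most of the Eph sites and all of the co-bound ones. Epha4, a receptor with a broad set of ephrin ligands that acts in the dorsal and ventral choice of limb motor axons, had 6 Tbx4 summits (2.26, 13.57, 2.94, 2.94, 15.93 and 2.94) and 3 Hoxc10 summits (9.16, 11.45 and 8.43). None of these 9 was inside the gene. They lay 226 to 785 kb outside it, and all but 1 Tbx4 summit were on the side of the lower coordinates on chromosome 1, beyond the 3′ end. The exception, at 78016349, was 501242 bp from Epha4 and 84918 bp from its neighbour Pax3. The co-bound site had its summits at 76832537 for Tbx4 and 76832503 for Hoxc10, 34 bp apart and 535 kb from the gene.

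Epha3 had 5 Tbx4 summits, which scored 7.14, 10.21, 28.89, 2.26 and 4.46, and 2 Hoxc10 summits of 5.05 and 9.16. The Tbx4 summit of 7.14 and the Hoxc10 summit of 5.05 were nearer to the neighbour Pros1. The highest Tbx4 summit of Epha3, at 63452350 of chromosome 16, was 91.2 kb outside the gene and co-bound with the Hoxc10 summit of 9.16 at 63452402. By its Tbx4 score it was the strongest co-bound site of the guidance genes. Epha7, also a receptor of A-class ephrins, had Tbx4 summits of 13.57 and 3.67 and Hoxc10 summits of 2.2 and 7.72, none inside the gene. The co-bound pair at 28703646 and 28703741 of chromosome 4 lay 109 kb before its start. Both Epha3 and Epha7 thus resembled Epha4 in having their strongest and co-bound sites outside the gene.

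The other A-class receptors had few sites. Epha6 had Tbx4 summits of 2.26 and 2.94, Epha1 and Epha2 1 Tbx4 summit of 2.94 each, and Epha5 1 Hoxc10 summit of 5.05. This Hoxc10 summit was 414934 bp from Epha5 and 284632 bp from its neighbour Tecrl. Epha8 and Epha10 had none. The domain of Epha6 is 1972 kb long and that of Epha5 1063 kb.

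The B-class receptors had mostly Tbx4. Ephb3 had Tbx4 summits of 2.94, 14.74 and 4.46 and Ephb1 1 of 9.15, without Hoxc10. Ephb2 had Tbx4 summits of 4.46 and 2.94 and a Hoxc10 summit of 6.34, all inside the gene, with the Hoxc10 summit at 136784099 of chromosome 4, between the others. Ephb6 had none. Together the 5 B-class genes had 8 Tbx4 summits and 1 Hoxc10 summit, compared with 17 and 8 at the 9 A-class genes. Per Mb of domain these were 4.21 Tbx4 and 0.527 Hoxc10 summits at B-class genes, against 1.94 and 0.915 at A-class genes.

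Ephb4, the receptor for Efnb2 in veins, was 1 of 2 guidance genes with a summit in a promoter window, taken as 250 bases before to 50 after a RefSeq start. Its Tbx4 summit scored 8.12 and lay 87 bp before the start, and a second one of 3.67 lay 3423 bp beyond the other end of the gene and 692 bp from its neighbour Zan. The other gene was Unc5c, a netrin receptor of the repulsive kind, whose Tbx4 summit of 2.94 lay 82 bp before the start. The 250 bases before each start are shown because they hold the only summits within 1 kb of an annotated start of these genes. They are given on the plus strand of GRCm38.p6 (mm10), from RefSeq, and the capitals mark the 21 bases centred on the summit, for Ephb4 at chr5:137349859-137350108 and for Unc5c at chr3:141465314-141465563.
Ephb4: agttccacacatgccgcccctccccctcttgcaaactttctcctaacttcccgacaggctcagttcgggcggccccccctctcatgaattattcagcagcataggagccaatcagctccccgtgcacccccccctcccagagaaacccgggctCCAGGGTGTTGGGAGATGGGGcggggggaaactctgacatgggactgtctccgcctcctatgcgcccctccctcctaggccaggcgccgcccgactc
Unc5c: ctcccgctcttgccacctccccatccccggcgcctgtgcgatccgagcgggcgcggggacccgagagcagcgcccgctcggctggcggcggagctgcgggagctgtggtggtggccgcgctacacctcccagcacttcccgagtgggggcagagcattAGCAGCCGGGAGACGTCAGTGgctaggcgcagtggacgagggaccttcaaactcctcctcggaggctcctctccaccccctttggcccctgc

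Both stretches were rich in G and C, with 64% for Ephb4 and 71.2% for Unc5c, against a median of 55.6% (quartiles 47.2 and 64) over 21263 windows of protein-coding genes. Of the 44 windows of guidance genes 2 held a Tbx4 summit (4.55%), against 1.1% of all windows, and 0 held a Hoxc10 summit, against 0.15%. The letters of a T-box site, AGGTGTGA, searched on both strands, were in 0 of the 44 guidance windows and in 1.15% of all windows. The shorter GGTGTG, which is part of it, was in 8 guidance windows (18.2%) and in 18.4% of all, and neither the Ephb4 nor the Unc5c window held it. The Hox letters TTTATNG were in 4 guidance windows (9.09%) and in 9.58% of all, and TGATTTAT was in 0 and in 0.814%. The windows cover only gene starts, whereas most summits lay elsewhere.

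The neuropilins, the binding receptors of class 3 semaphorins, were the subfamily with the densest binding. Nrp2, the receptor of Sema3f, had 4 Tbx4 summits (4.46, 4.46, 3.67 and 2.26) and 4 Hoxc10 summits (16.39, 7.72, 4.43 and 7.72) in a domain of 406 kb. Of these, 3 pairs were co-bound, the most of any guidance gene: at 62648127 and 62648135 of chromosome 1, 8 bp apart and 55.2 kb before the gene, at 62780359 and 62780220 inside it, and at 62887713 and 62887779, 69 kb after it. The first pair is 5843 bp from the end of Pard3b and so nearer to that gene. The Tbx4 summit of 2.26 was nearer to the other neighbour, Ino80d. Nrp1, the receptor of Sema3a, also found in vessels, had 6 Tbx4 summits (2.26, 7.14, 33.08, 2.94, 2.94 and 2.94) and 2 Hoxc10 summits (10.67 and 3.26), none co-bound. The Tbx4 summits of 2.26 and 7.14 were nearer to the neighbour Pard3 than to Nrp1. The Nrp1 summit of 33.08, at 128397195 of chromosome 8, was inside the gene, 38.1 kb from the start, and in the highest 1.97% of the Tbx4 list. Nrp1 thus had a high Tbx4 summit without Hoxc10 beside it, and Nrp2 had lower Tbx4 summits, most of them beside Hoxc10.

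Of the plexins, Plxna4, which transduces the signal of Sema3a, had 4 Tbx4 summits (5.3, 2.94, 2.94 and 8.12) and 2 Hoxc10 summits (2.72 and 5.69), all inside the gene. At 32231545 of chromosome 6 the Tbx4 summit of 5.3 was 32 bp from the Hoxc10 summit of 2.72. Plxnc1, a receptor of Sema7a, had 1 co-bound site 139 kb outside the gene, with low scores of 2.26 for Tbx4 and 4.43 for Hoxc10, and this site was nearer to Cradd. Plxna2 had 1 summit of each factor, 7.14 and 2.72, and Plxna1 1 Tbx4 summit of 2.94. Plxnd1 had none.

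The long genes Robo1 and Robo2 stand next to each other on chromosome 16, and each had 5 Tbx4 summits. Robo1 had Tbx4 summits of 2.26, 2.26, 4.46, 7.14 and 1.63 and Hoxc10 summits of 20.86 and 14.69. Robo2 had Tbx4 summits of 7.14, 1.63, 4.46, 7.14 and 15.93 and Hoxc10 summits of 20.86, 14.69, 3.83 and 35.74. The Tbx4 summits of 7.14 and 1.63 and the Hoxc10 summits of 20.86 and 14.69 between the genes are the same sites counted for both. Inside Robo2, at 74506382, lay the highest Hoxc10 summit of all guidance genes, 35.74, in the highest 2.97% of the list, and a Tbx4 summit of 7.14 was 98 bp away. Robo4, an endothelial Robo, had no summit in a domain of 29.5 kb.

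Of the 5 netrin receptors 4 had a Tbx4 summit and 1 a Hoxc10 summit. Unc5c had 6 Tbx4 summits and no Hoxc10 summit, the largest such difference among the guidance genes. They scored 2.94, 1.63, 4.46, 5.3, 10.21 and 5.3, with all but the first, at the start, inside the gene. The highest Tbx4 summit of all guidance genes, 34.51, lay at 54837743 of chromosome 13, 107 kb from Unc5a and 41 kb from its neighbour Tspan17. Unc5d had Tbx4 summits of 2.26 and 15.93, 769 and 759 kb from the gene, the first of them nearer to the neighbour Poteg. Unc5b had none. Dcc, the attractive netrin receptor, had 1 Tbx4 summit of 2.26 and 1 Hoxc10 summit of 8.43, at opposite sides of the gene. This Hoxc10 summit was nearer to the neighbour Mbd2. In all, 10 Tbx4 summits and 1 Hoxc10 summit lay in the domains of the 5 netrin receptors. With flanks of at most 100 kb, 1 of the 5, Unc5c, had a Tbx4 summit, against 4 in the full domains, and none had a Hoxc10 summit.

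**Figure D3:**
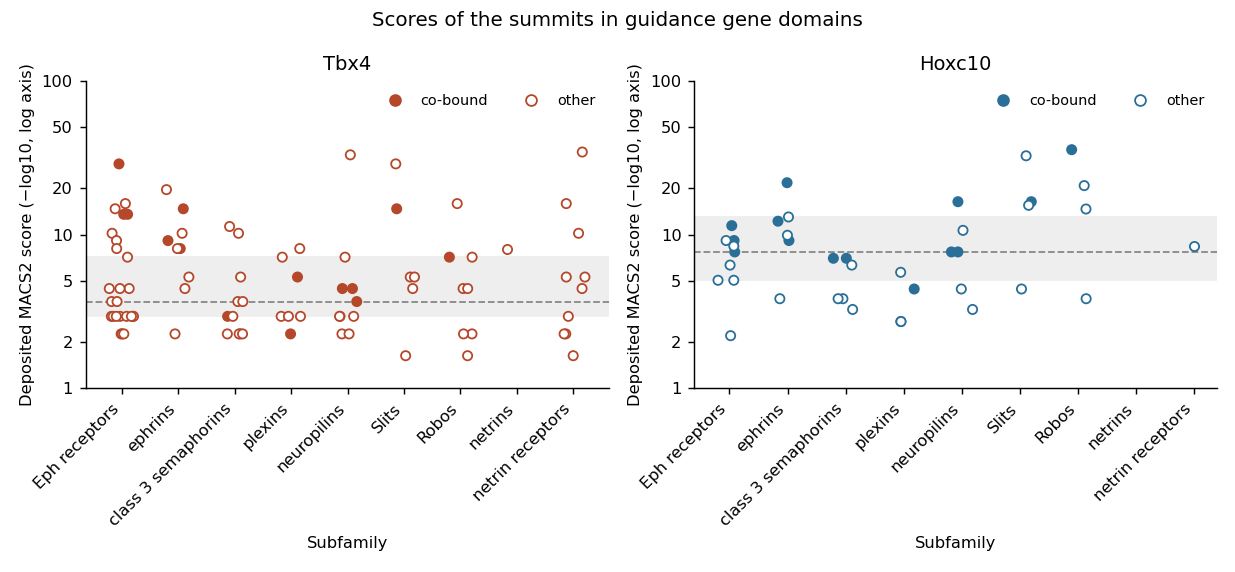
Deposited MACS2 score of each summit in the guidance domains (y axis, −log10 values on a log axis) by subfamily (x axis), for Tbx4 and Hoxc10; filled points are co-bound, the grey band spans the quartiles of the whole list and the dashed line is its median. The highest points are the Tbx4 summit of 34.51 in the domain of Unc5a and the Hoxc10 summit of 35.74 inside Robo2. That Tbx4 summit was nearer to the neighbour Tspan17. The netrin receptors had a single Hoxc10 summit.

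By subfamily, the density of summits in the domains was highest at the neuropilins, with 6.76 Tbx4 and 4.06 Hoxc10 summits per Mb, and the netrin receptors had 1.55 and 0.155 per Mb. The domains of all protein-coding genes had 1.8 and 0.604 per Mb. Class 3 semaphorins had 3.73 and 2.03 per Mb, ephrins 3.43 and 2.29, Slits 2.4 and 1.6, plexins 2.35 and 1.34, and Eph receptors 2.35 and 0.846. The Robos had 1.76 and 0.881, and the netrins 2.2 Tbx4 summits per Mb and no Hoxc10 summit. These densities rest on 1 to 25 Tbx4 summits and 0 to 9 Hoxc10 summits a subfamily, and on a few genes in each. At the ephrins, 5 of the 9 Tbx4 summits and 5 of the 6 Hoxc10 summits were in the domain of Efna5.

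**Figure D4:**
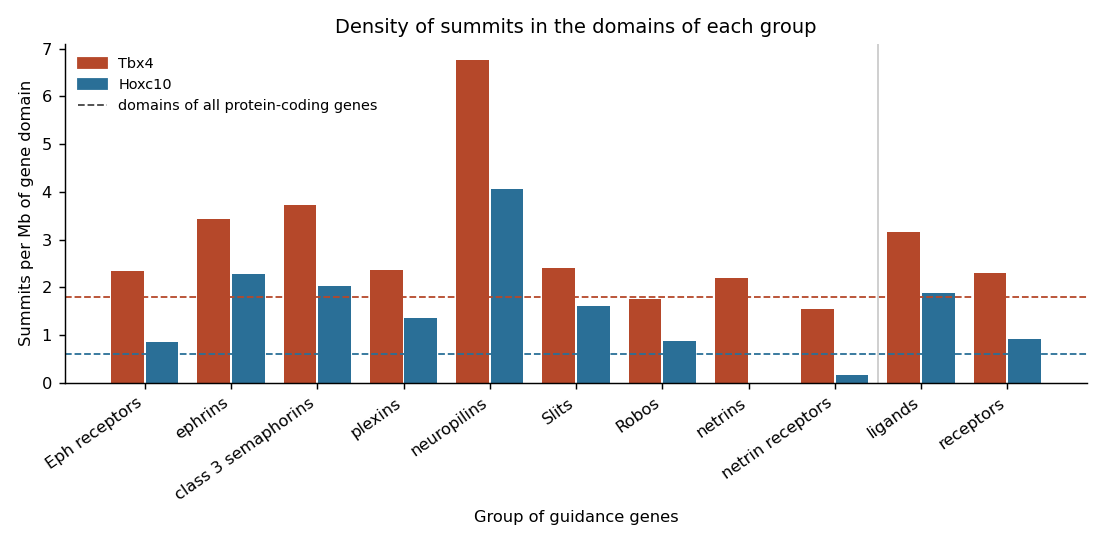
Summits per Mb of gene domain (y axis) of Tbx4 and Hoxc10 for each subfamily and for ligands and receptors (x axis); dashed lines give the density in the domains of all protein-coding genes, 1.8 for Tbx4 and 0.604 for Hoxc10. The neuropilins stand highest, at 6.76 and 4.06, and the netrin receptors have 1.55 and 0.155.

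Ligands and receptors were compared next, and the interval of each difference included 0. A Tbx4 summit was found at 10 of 19 ligands (52.6%) and at 22 of 29 receptors (75.9%), a difference of -23.2 percentage points, ligands minus receptors (95% interval from Wilson limits -47.3 to 3.69). A Hoxc10 summit was found at 8 ligands (42.1%) and 13 receptors (44.8%), a difference of -2.72 points (-28.6 to 24.4). The domains of ligands were shorter, with a median of 225 kb against 471 kb for receptors. Over domains of all lengths, the order per Mb was the other way. Ligands had 3.17 Tbx4 and 1.88 Hoxc10 summits per Mb, against 2.3 and 0.919 at receptors. In domains of 100 kb to 1 Mb, ligands had the lower densities, 1.95 and 1.56 per Mb against 6.08 and 2.11. In domains over 1 Mb they had the higher ones, 2.97 and 2.1 per Mb against 1.55 and 0.73. Under 100 kb, ligands had 21.2 Tbx4 summits per Mb against 7.65, from only 5 and 3 summits. Neither group had a Hoxc10 summit there. All 5 ligands with domains over 1 Mb (Efna5, Efnb2, Sema3a, Sema3d and Slit2) had both factors, against 8 of 12 such receptors. Of these ligands, Sema3d was counted only through summits shared with Sema3a. In domains of 100 kb to 1 Mb, 2 of 6 ligands had both factors, against 4 of 10 receptors.

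Co-binding was found at 11 guidance genes, 4 ligands and 7 receptors, or 22.9%, compared with 2.65% of all protein-coding genes. At least 2 co-bound sites were found at Efna5, Sema3a and Nrp2, and at 0.548% of all genes. Of the 11 genes 8 were among the 17 guidance genes with domains over 1 Mb (47.1%, against 18.4% of all genes of this length). The other 3 were Nrp2, Plxna4 and Plxnc1, among 16 guidance genes with domains of 100 kb to 1 Mb (18.8%, against 5.2% of all genes of this length). None of the 15 guidance genes with shorter domains had a co-bound site, against 0.221% of all such genes. There were 15 co-bound pairs, with summits 8 to 139 bp apart and a median of 52 bp, against 63.5 bp over all 518 co-bound Hoxc10 summits. They made up 17.2% of the Tbx4 summits in guidance domains (95% Wilson interval 10.7 to 26.5%), against 10.7% outside (9.89 to 11.7%). For Hoxc10 the co-bound share was 37.5% (24.2 to 53%) in guidance domains and 32% (29.7 to 34.3%) outside, so the intervals overlapped for both factors.

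**Figure D5:**
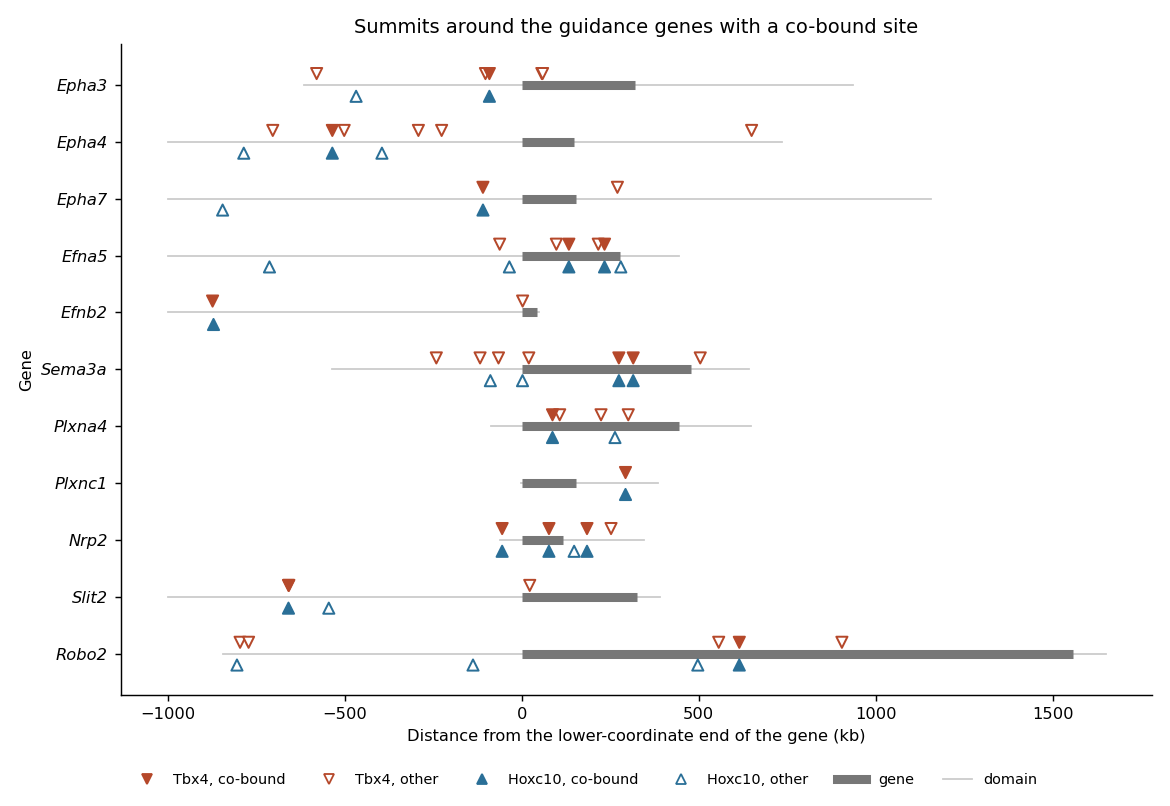
Positions of Tbx4 (downward triangles) and Hoxc10 summits (upward triangles) around the 11 guidance genes with a co-bound site, as distance in kb from the lower-coordinate end of each gene (x axis); filled triangles are co-bound, the thick bar is the gene and the thin line its domain. The 3 pairs at Nrp2 lie before, inside and after the gene, while those at Epha3, Epha4, Epha7, Efnb2, Plxnc1 and Slit2 lie outside the genes.

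Of the 15 pairs 7 were inside a guidance gene (2 each in Efna5 and Sema3a, and 1 each in Nrp2, Plxna4 and Robo2), and 8 were between genes. In guidance domains no Hoxc10 summit had its nearest Tbx4 summit between 200 and 1000 bp away, so the count of co-bound sites was the same at limits of 500 and 1000 bp. Over the whole Hoxc10 list the co-bound share rose to 37.5% and 38.8% at these limits, against an unchanged 37.5% in guidance domains. For Tbx4 the whole-list share rose to 12.7% and 13.3%, against an unchanged 17.2%. A single further Hoxc10 summit, the one of 20.86 between Robo1 and Robo2, had a Tbx4 summit within 10 kb, at 8828 bp. The pair at Epha3 scored 28.89 for Tbx4, in the highest 2.59% of its list, and 9.16 for Hoxc10, in the highest 38.9% of its own. The pair in Robo2 scored 7.14 for Tbx4, in the highest 21.9%, and 35.74 for Hoxc10. At 2 pairs, near Slit2 and in Efna5 at 62836855, both scores were in the highest 15.8% of their lists.

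The counts depended on how far a domain reaches, those for Hoxc10 the most. With flanks of at most 100 kb, 11 guidance genes had a Hoxc10 summit (22.9%, against 4.74% of all genes) and 24 a Tbx4 summit (50%, against 14.4%). Both factors were then found at 10 (20.8%, against 3.02%) and a co-bound site at 6 (12.5%, against 1.58%). Within the genes and 5 kb around them, 8 had a Hoxc10 summit (16.7%, against 2.64% of all genes) and 23 a Tbx4 summit (47.9%, against 10.8%). Both factors were then found at 8 (16.7%, against 1.64%) and a co-bound site at 5 (10.4%, against 0.85%). Epha4 and Epha7 had no summit of either factor within 100 kb of the gene, whereas Efna5 had 5 Tbx4 and 4 Hoxc10 summits there.

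Other guidance genes had smaller shares with a summit than the 48 genes, and the difference was not tested. A second set of 55 genes held the ephrin Efnb1, other netrins, semaphorins, plexins and guidance receptors, and intracellular effectors. It also held the limb nerve cues Hgf, Met, Gdnf, Ret, Gfra1, Cxcl12 and Cxcr4. In this set 16 genes had a Tbx4 summit (29.1%, against 17.2% of all genes) and 7 a Hoxc10 summit (12.7%, against 6.83%). Both were found at 5 (9.09%, against 5%) and a co-bound site at 2 (3.64%, against 2.65%). Neither factor was found at 37 (67.3%, against 81%). Of the ephrins, plexins, Robos and netrins in this set, only Ntn3 had a summit, of Tbx4 with a score of 2.26. Efnb1, Plxna3, Plxnb1, Plxnb2, Plxnb3, Robo3, Ntn5, Ntng1 and Ntng2 had none. The subfamily counts and densities above leave these genes out. The median domain was 172 kb, against 360 kb for the 48 genes and 67.3 kb for all genes, so lengths were not matched. Per Mb of domain there were 1.8 Tbx4 and 0.636 Hoxc10 summits, near the 1.8 and 0.604 of all genes. The 48 genes had 2.51 and 1.16 per Mb. The genes with the most Tbx4 summits were Rgma, a ligand of neogenin (6), Flrt2, a ligand of Unc5 receptors (5), and Sema6a, a transmembrane semaphorin (5). The gene with the most Hoxc10 summits was Cxcl12, a chemokine for muscle precursors and neurons, with 6 Hoxc10 summits and 1 Tbx4 summit, of which 1 pair was co-bound. The other 6 genes with Hoxc10 had 1 summit each, and the highest of these scored 33.64, at Sema5a, another transmembrane semaphorin, followed by 15.53 at Srgap1, an effector of Robo receptors.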

How the data were processed

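Chromatin was immunoprecipitated from hindlimb buds and sequenced; per the submitters' processing notes, Bowtie2 2.2.6, MACS2 2.1.1.20160309 and HOMER were used on mm10. The authors deposited 1 list of 1 bp summits per factor, with a MACS2 score on a −log10 scale; its kind (p-value or q-value), the choice of summits, the control and any pooling are items not given in the sources used here. Only Abcam summits near Santa Cruz peaks may be in the deposited Hoxc10 list.

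The members and lists were chosen with earlier results of these data known. Genes came from a RefSeq table of GRCm38.p6, the build of mm10; all 48 symbols matched. Starts and promoter sequences came from RefSeq windows, at hand for 39 of the 48 genes. No test was run, since each factor has 1 list; shares, with 95% Wilson intervals, are set beside all protein-coding genes. Alternatives were other domains, score limits and co-binding distances. All members are named, with every score for members with a co-bound site, those with most summits and those with a promoter summit; of the other guidance genes, the 3 with most summits of each factor are named. Assignment was tested on simulated data. Python 3.11.15, scipy 1.17.1 and matplotlib 3.10.9 were used.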

Additional observations from a re-analysis of the deposited data

How the results depend on the processing

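No paired analysis was possible because each factor is represented by 1 list. Of the 10 main results, all stayed close to their values when predicted genes were not counted as neighbours and without summits within 1 kb of a gene end. They also did when summits of 1 factor within 1 kb were counted once. With each summit given to the nearest gene, 29 genes had Tbx4 (against 13.4% of all genes) and 15 had Hoxc10 (5.03%). Both were then found at 15 (3.5%) and a co-bound site at 10 (1.89%). Of 71 counts by subfamily or gene, 19 moved under this rule. Class 3 semaphorins with Hoxc10 went from 4 to 1, and Tbx4 summits at Nrp2 from 4 to 2. With flanks of at most 100 kb, 11 genes had Hoxc10 (against 4.74% of all genes), 10 both factors (3.02%) and 6 a co-bound site (1.58%). In this setting 22 Hoxc10 summits were left. Counting only genes and 5 kb around them, these genes were 8 (against 2.64% of all genes), 8 (1.64%) and 5 (0.85%). They had 14 Hoxc10 and 49 Tbx4 summits in all guidance domains of this kind. With scores at or above the median of each list, 12 genes had Hoxc10 (against 4.21% of all genes) and 11 both (2.94%). There were then 52 Tbx4 and 21 Hoxc10 summits. With the 1614 highest Tbx4 summits, 22 genes had Tbx4 (against 7.39% of all genes) and 33 Tbx4 summits were left. A co-bound site was then found at 7 genes (against 1.73% of all genes). Of the Hoxc10 summits 20% were then co-bound, near the 18.8% of the whole list. With co-binding within 50 bp, 6 genes had a co-bound site (against 1.3% of all genes). The co-bound shares were 8.05% of Tbx4 and 17.5% of Hoxc10 summits, against 4.56% and 13.5% of the whole lists. Shorter domains and shorter lists hold fewer summits by construction. The difference between ligands and receptors with a Tbx4 summit ranged from -25 to -0.907 points. Read depth is unknown, so a gene with no summit is not shown to be unbound.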
